A study of Mus musculus with 24 samples.

Results

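Mitosis genes were followed across 3 populations of mouse tracheal epithelial cells. They are 39 genes that act in the G2 and M phases of the cell cycle, taken as a fixed list of symbols, and all 39 were found among the 35855 genes of the data. By role they comprise 4 cyclin and cyclin-dependent kinase genes and 6 genes of mitotic kinases and the chromosomal passenger complex. Among these 6 was placed Cdca3, whose product promotes mitotic entry. A further 6 are genes of the spindle checkpoint and the anaphase-promoting complex (APC/C), and 6 are kinetochore and centromere genes. The rest are 10 genes of spindle motors and microtubule proteins, 3 cytokinesis genes and 4 genes of chromosome structure.

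A cell enters mitosis when A-type and B-type cyclins activate Cdk1, after which Aurora and Polo-like kinases build the spindle and the spindle checkpoint holds back the APC/C until the kinetochores are attached. Transcripts of these genes build up in G2 under the MuvB complex, B-Myb, FoxM1 and NF-Y, and are kept low in resting cells by the DREAM complex. Basal cells are the stem cells of the tracheal epithelium, they divide slowly in an undisturbed airway, and secretory and ciliated cells descend from them.

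The cells were sorted from the tracheas of naive, untreated female wild-type C57BL/6 mice, with 1000 cells per library, and each library was made with the SmartSeq2 protocol for cell populations. The labels name 3 subsets of epithelial cells with 8 libraries each: BCAM HI (BCAM high in what follows), BCAM LO (BCAM low) and DIFFERENTIATED EPCS (differentiated). BCAM, the basal cell adhesion molecule, is a surface receptor for laminin. In every group 5 libraries (replicates 1 to 5) carry the label batch 1 and 3 libraries (replicates 6 to 8) the label batch 2. The sources used here do not give what the batch number stands for, the age of the mice, how many mice a library holds, or the sort gates. Nothing says that the libraries of a group came from separate animals, so p-values measure only the spread between these libraries.

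The libraries held 1824619 to 4440072 estimated counts. Mean Bcam was 509 ± 133 CPM (counts scaled to library size) in BCAM high, against 376 ± 91.2 CPM for BCAM low and 395 ± 328 CPM for differentiated (SD, n = 8 each). The 10 basal cell markers, among them Krt5, Krt14 and Trp63, summed to 8221 to 10796 CPM in BCAM high, 7045 to 8433 CPM in BCAM low and 369 to 2799 CPM in differentiated. Differentiated libraries also held 13734 to 116402 CPM of 5 thyroid genes, against at most 1280 CPM in BCAM high and 234 CPM in BCAM low.

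The mitosis genes were thinly covered. All 39 together received 449 to 1790 counts per library in BCAM high, 261 to 755 counts in BCAM low and 133 to 326 counts in differentiated. More than 3 counts were reached by 27 to 39 of the 39 genes in a BCAM high library, by 22 to 35 in a BCAM low library and by 11 to 26 in a differentiated library. CPM values use edgeR's TMM-scaled library sizes, and abundances of different genes are ranked per length, as TPM.

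Summed over the 39 genes, the level in BCAM high ran from 132 CPM at the lowest through a median of 247 CPM to 493 CPM at the highest. In BCAM low it ran from 112 through 150 to 234 CPM, and in differentiated from 81.9 through 104 to 184 CPM. The means were 274 ± 111, 161 ± 42.8 and 115 ± 36.1 CPM (SD, n = 8). The groups overlapped: BCAM high 4, at 132 CPM, lay within the range of both other groups. BCAM high 1 stood above every other library, at 493 CPM against 345 CPM in the next, and without it the BCAM high mean was 243 ± 72.4 CPM (SD, n = 7). No test was made of this sum, since the genes were chosen together. In bulk libraries, fewer dividing cells and less mitotic RNA per cell cannot be told apart.

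**Figure D1:**
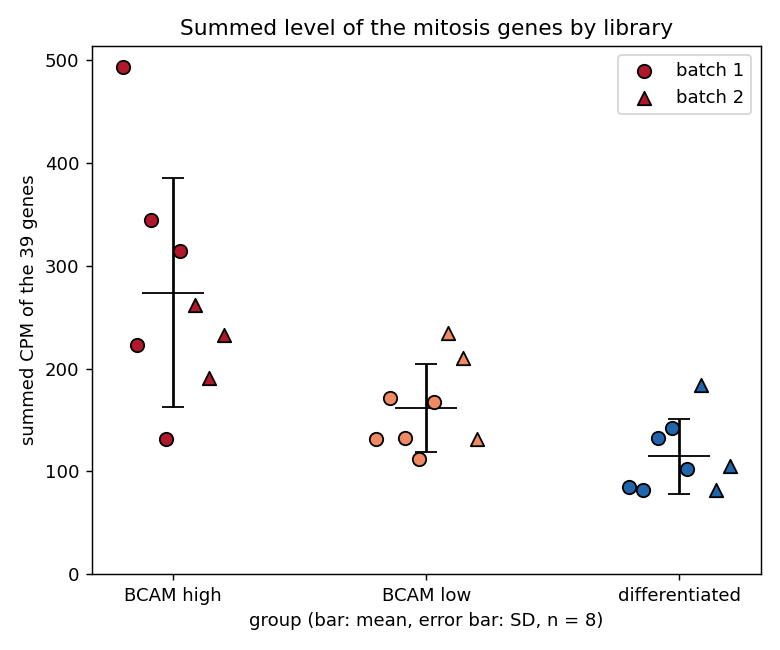
Summed CPM of the 39 mitosis genes in each library (vertical axis), by group (horizontal axis), with circles for batch 1 and triangles for batch 2. Horizontal bars are means and error bars SDs over 8 libraries; BCAM high spans 132 to 493 CPM, BCAM low 112 to 234 CPM and differentiated 81.9 to 184 CPM.

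Most single genes followed the order of the sum. Mean CPM was highest in BCAM high for 34 of the 39 genes, in BCAM low for 3 (Dlgap5, Kif4 and Ndc80) and in differentiated for 2 (Mad2l1 and Spc25). It was lowest in differentiated for 31 genes, in BCAM low for 7 (Aurka, Aurkb, Ccnb1, Cdk1, Nusap1, Racgap1 and Spc25) and in BCAM high for Mad2l1. The stepwise order, BCAM high over BCAM low over differentiated, was held by 28 genes. By pairs, mean CPM was higher in BCAM high than in BCAM low for 35 of the 39, in BCAM high than in differentiated for 37 and in BCAM low than in differentiated for 31, beside 50.6%, 51.6% and 51.4% of all genes tested. Single libraries weighed on these means. BCAM high 1 was the highest of its group for 22 genes and the highest of all 24 libraries for 20. BCAM low 6 was the highest of its group for 15 genes and differentiated 6 for 12.

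**Figure D2:**
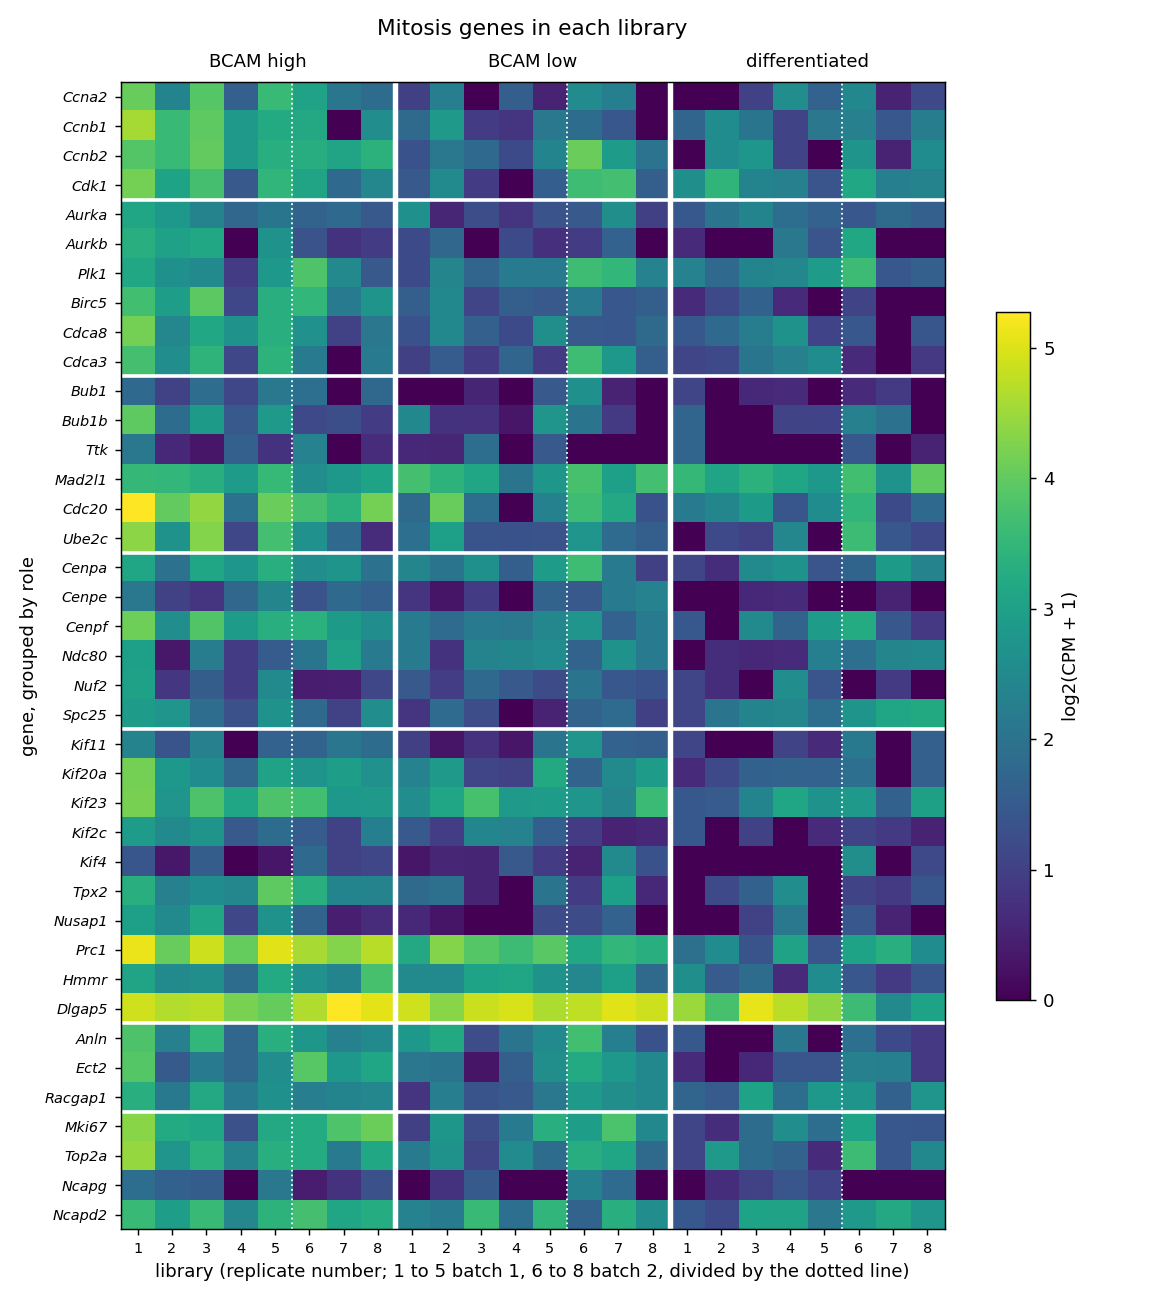
Level of each of the 39 genes (rows, by role) in each of the 24 libraries (columns), coloured by log2(CPM + 1). BCAM high 1, 3 and 5 are bright across most rows, BCAM high 4 is dark, and Dlgap5 lies above 15 CPM in every BCAM high and BCAM low column.

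The groups were compared in pairs with edgeR's quasi-likelihood F-test, from 1 model of the 24 libraries that included batch, on 12211 genes that passed the filter on low counts, and with Benjamini-Hochberg adjustment over all of them at 0.05. The filter kept 26 of the 39 genes and left out Aurka, Aurkb, Bub1, Bub1b, Ttk, Cenpe, Nuf2, Spc25, Kif11, Kif2c, Kif4, Nusap1 and Ncapg. A gene can pass it through the group where its level is high, so the counts of calls below describe the genes that passed and are no evidence on the 39 as a set.

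Between BCAM high and BCAM low, 3 of the 26 genes were called higher in BCAM high (11.5%) and none lower; of all genes tested, 2.43% were called higher and 7.02% in either direction. The 3 were Ccnb1, Birc5 and Prc1. At an unadjusted p under 0.05, 11 of the 26 were higher and none lower, beside 1100 higher and 1437 lower of all 12211 genes tested. DESeq2's Wald test called 8, the same 3 among them, beside 9.11% of all genes in either direction. None of the 26 had BCAM high wholly above BCAM low, as 0.5% of all genes tested did. The calls depended on the model: with offsets for transcript length none was called (10 at an unadjusted p under 0.05), with Ccnb1 at 1.79 (adjusted p = 0.086), Birc5 at 2.08 (adjusted p = 0.0617) and Prc1 at 1.14 (adjusted p = 0.0595). The log2 fold changes of the 26 had a median of 0.86, against 0.00 over all genes tested, and 23 were above 0.

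Against differentiated cells, 16 of the 26 genes were called higher in BCAM high (61.5%), beside 19.4% of all genes tested, and none lower, with 41.3% of all genes called in either direction. The median log2 fold change was 1.51, against 0.02 over all genes tested. At an unadjusted p under 0.05, 20 were higher and none lower, beside 2854 higher and 3066 lower of all 12211 genes tested. DESeq2 called 18, all higher, beside 42.4% of all genes in either direction. BCAM low against differentiated gave 5 genes called higher (19.2%), close to the 16.3% of all genes tested, and none lower, with 33.5% of all genes called in either direction. At an unadjusted p under 0.05, 7 were higher and none lower, beside 2585 higher and 2651 lower of all 12211 genes tested. DESeq2 called 7, all higher, beside 35.4% of all genes in either direction. None of the 26 lay wholly above differentiated in BCAM low, beside 3.44% of all genes tested. The 5 called were Birc5, Prc1, Hmmr, Dlgap5 and Anln, and the median over the 26 was 0.48 against 0.02 over all genes. The comparisons share groups, so their calls are not independent of each other.

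**Figure D3:**
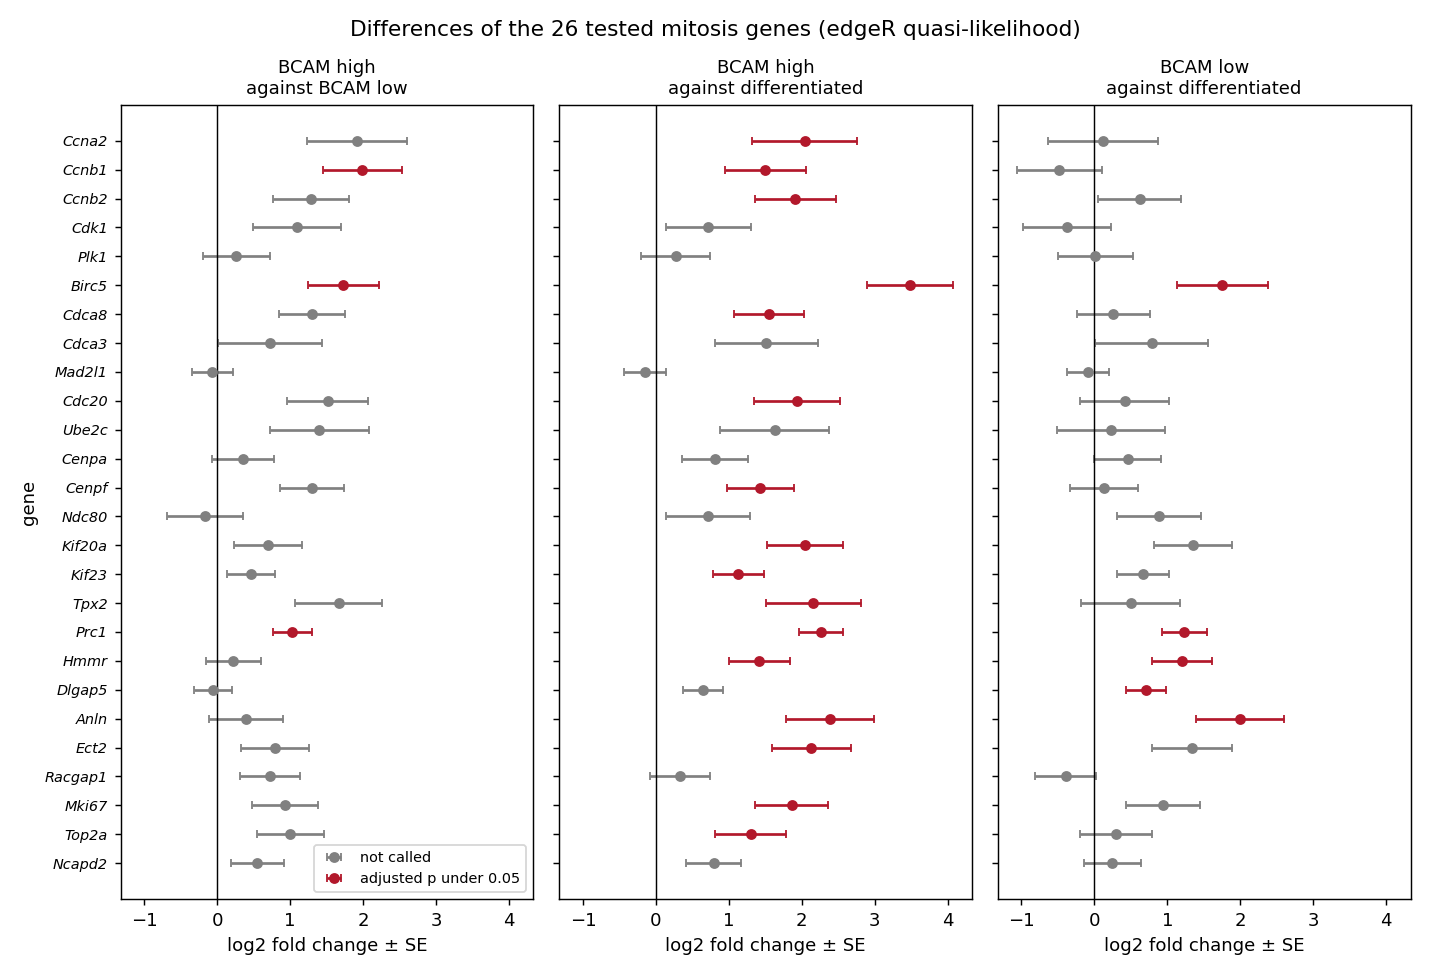
Log2 fold change ± SE (horizontal axis) of the 26 tested mitosis genes (rows) in each comparison, from edgeR's quasi-likelihood fit over 24 libraries; red marks an adjusted p under 0.05. Red points number 3 in BCAM high against BCAM low, 16 in BCAM high against differentiated and 5 in BCAM low against differentiated.

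The promoters of the mitosis genes carried letters known from G2 and M phase genes. The 39 genes were listed as genes of these phases, so the shares below describe the list and not these libraries. Called and uncalled genes were not compared for them. The cell cycle genes homology region, read here as TTTGAA, is the element that the MuvB core of DREAM, B-Myb-MuvB and FoxM1-MuvB complexes recognises, and CCAAT is the box bound by NF-Y. In RefSeq promoters of build GRCm38.p6, each running from 250 bases before to 50 bases after a start site, the motifs were searched one at a time on both strands, so that matches sharing letters were both counted. Sequences were matched for 34 of the 39 genes; those of Tpx2, Kif20a, Ccna2, Aurkb and Dlgap5 were not. TTTGAA was present in 27 of the 34 (79.4%), against 20.2% of all 27025 genes in the table, and within 50 bases of the start in 24 (70.6%), against 5.72%. CCAAT was present in 27 (79.4%), against 41.1%, and at least 2 copies in 19 (55.9%), against 13.3%. Both motifs stood in 24 (70.6%), against 7.97%. The other mitosis genes described below held TTTGAA in 45.9% and CCAAT in 65.6% of 61 matched genes, and DNA replication genes in 15.4% and 69.2% of 26.

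The windows from 100 bases before to 15 bases after the start are given for the 3 genes called between the basal subsets, which differ in these letters, and for 4 further genes with both motifs. They read 5′ to 3′ on the strand of the gene. Capitals mark both motifs, and a CCAAT on the other strand appears as its reverse complement.
Ccnb1, chr13:100786472-100786586, minus strand: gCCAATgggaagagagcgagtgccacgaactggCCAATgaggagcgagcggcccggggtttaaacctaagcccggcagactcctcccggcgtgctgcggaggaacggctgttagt
Birc5, chr11:117849137-117849251, plus strand: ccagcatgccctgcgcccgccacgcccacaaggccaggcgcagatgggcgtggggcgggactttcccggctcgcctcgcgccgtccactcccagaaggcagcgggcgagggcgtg
Prc1, chr7:80294351-80294465, plus strand: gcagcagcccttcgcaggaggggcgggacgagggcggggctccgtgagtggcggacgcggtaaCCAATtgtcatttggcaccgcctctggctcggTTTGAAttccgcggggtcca
Cdk1, chr10:69352898-69353012, minus strand: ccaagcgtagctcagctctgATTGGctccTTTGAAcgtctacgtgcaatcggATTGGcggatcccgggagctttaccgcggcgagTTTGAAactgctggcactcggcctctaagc
Ccnb2, chr9:70421540-70421654, minus strand: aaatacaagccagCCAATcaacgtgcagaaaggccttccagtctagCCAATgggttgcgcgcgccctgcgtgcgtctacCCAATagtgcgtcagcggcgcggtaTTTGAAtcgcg
Cdc20, chr4:118437329-118437443, minus strand: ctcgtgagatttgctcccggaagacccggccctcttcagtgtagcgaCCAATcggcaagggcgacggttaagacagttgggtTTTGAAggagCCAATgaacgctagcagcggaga
Cenpf, chr1:189688072-189688186, minus strand: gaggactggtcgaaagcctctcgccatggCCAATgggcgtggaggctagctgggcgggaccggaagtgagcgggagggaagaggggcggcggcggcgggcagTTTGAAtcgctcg

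In these windows Ccnb1 held a pair of CCAAT boxes and no TTTGAA, Birc5 held neither, and Prc1 held each motif once. Cdk1, called in no comparison, held a pair of each, and Ccnb2 held 3 CCAAT boxes and TTTGAA. Birc5, Mad2l1, Nuf2 and Nusap1 held neither motif in their 300 bases. A match is a match of letters and not a measured binding site, and a missing match says only that the letters are not in the window.

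Cyclins and Cdk1 had the largest median log2 fold change of any role between the basal subsets, 1.61 over 4 tested genes, of which 1 was called. They summed to 34.9 ± 19.4 CPM in BCAM high, 13.4 ± 11.3 CPM in BCAM low and 12.8 ± 5.88 CPM in differentiated (SD, n = 8). Ccnb1 (chr13:100778650-100786570, minus strand, GRCm38) encodes cyclin B1, the main partner of Cdk1 at mitotic entry. Its level ran from 0 through 8.28 to 22.9 CPM in BCAM high (lowest, median, highest), from 0 through 2.12 to 6.15 CPM in BCAM low and from 1.11 through 3.22 to 4.95 CPM in differentiated. BCAM high 1 was the highest and BCAM high 7 the only BCAM high library at 0, so the groups overlapped, although 6 BCAM high libraries lay above all of BCAM low. Ccnb1 was called higher in BCAM high than in BCAM low (log2 fold change 1.99 ± 0.54 SE, adjusted p = 0.0217) and than in differentiated (1.50 ± 0.55, adjusted p = 0.0301), by edgeR's quasi-likelihood test. Without BCAM high 1 both calls were lost (adjusted p = 0.0691 and 0.0847). The second was also lost without BCAM high 3 or 6 or differentiated 1, 3, 4 or 5 (adjusted p from 0.0515).

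Ccnb2 (chr9:70407692-70421547, minus strand), which encodes cyclin B2, ran from 6.17 through 9.30 to 15.2 CPM in BCAM high, from 1.27 through 3.17 to 15.9 CPM in BCAM low and from 0 through 3.02 to 5.80 CPM in differentiated. Every BCAM high library lay above every differentiated one, while BCAM low 6 lay above all of BCAM high. Of all genes tested, 6.1% separated BCAM high above differentiated in this way; Ccnb2 and Prc1 were the tested mitosis genes that did. Ccnb2 was called higher in BCAM high than in differentiated (1.91 ± 0.55, adjusted p = 0.0064, edgeR) and not called against BCAM low (1.29 ± 0.52, adjusted p = 0.139), where it was called once BCAM low 6 was left out (1.69, adjusted p = 0.0499).

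Cdk1 (chr10:69335146-69352938, minus strand), the kinase itself, ran from 1.76 through 7.44 to 17.1 CPM in BCAM high, from 0 through 2.01 to 12 CPM in BCAM low and from 1.64 through 4.17 to 9.90 CPM in differentiated. The groups overlapped across most of their ranges, with BCAM low 6 and 7 at 11.5 and 12 CPM far above the other BCAM low libraries, which reached 4.73 CPM. It was called in no comparison (1.09 ± 0.60 against BCAM low, adjusted p = 0.306, edgeR). Ccna2, which encodes cyclin A2, an S phase and G2 cyclin, had means of 7.44 ± 5.33, 2.00 ± 1.93 and 1.80 ± 1.96 CPM and was called higher in BCAM high than in differentiated (2.04 ± 0.72, adjusted p = 0.0231, edgeR), a call lost without BCAM high 1 (adjusted p = 0.0532).

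**Figure D4:**
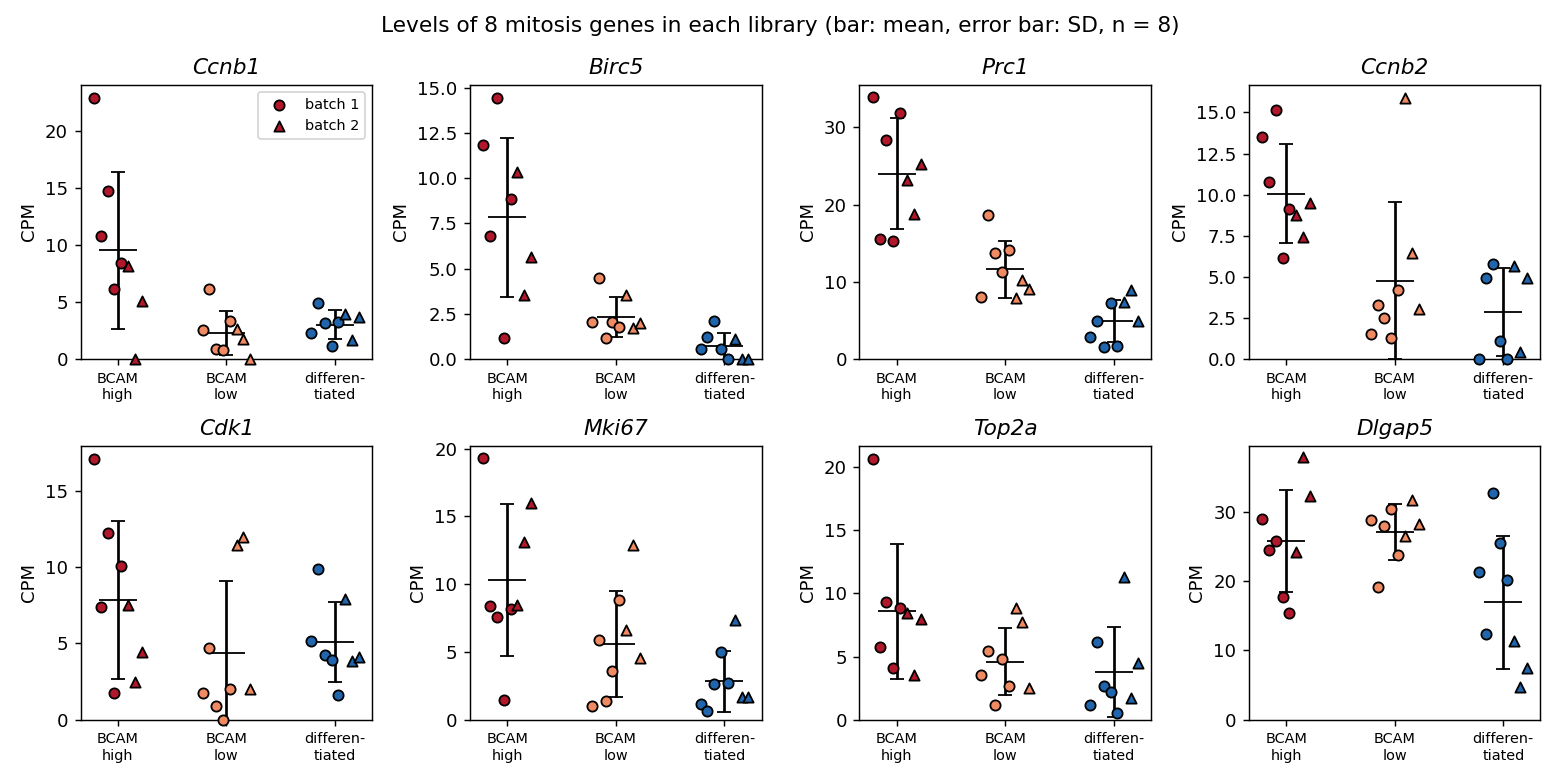
CPM (vertical axes) of Ccnb1, Birc5, Prc1, Ccnb2, Cdk1, Mki67, Top2a and Dlgap5 in each library, by group; circles are batch 1, triangles batch 2, bars and error bars mean and SD over 8 libraries. Prc1 separates BCAM high (15.3 to 33.9 CPM) from differentiated (1.58 to 8.96 CPM), and Dlgap5 in differentiated falls into a higher batch 1 and a lower batch 2.

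Among the kinases and the chromosomal passenger complex, Birc5 had the largest fold of any tested mitosis gene in BCAM high against differentiated. Birc5 (chr11:117849251-117855743, plus strand) encodes survivin, the subunit that brings the complex to the centromere. Its level ran from 1.18 through 7.85 to 14.4 CPM in BCAM high, from 1.14 through 2.02 to 4.49 CPM in BCAM low and from 0 through 0.566 to 2.11 CPM in differentiated. BCAM high 4 was the low library of its group, 6 BCAM high libraries lay above all of BCAM low and 7 above all of differentiated, and 3 differentiated libraries were at 0. Birc5 was called in all 3 comparisons by edgeR: higher in BCAM high than in BCAM low (1.73 ± 0.48, adjusted p = 0.0255), in BCAM high than in differentiated (3.48 ± 0.59, adjusted p = 2.01e-05) and in BCAM low than in differentiated (1.76 ± 0.62, adjusted p = 0.0299). The first of these was lost without BCAM high 1, 3 or 6 or BCAM low 3, 4, 5 or 7 (adjusted p = 0.051 to 0.067), and with the replicate number as a block (1.59, adjusted p = 0.054). The last was lost without BCAM low 2 or 6 or differentiated 5, 7 or 8 (adjusted p = 0.0533 to 0.0663). Neither was called in 1 batch alone: the first was 1.90 in batch 1 and 1.41 in batch 2 (adjusted p = 0.0551 and 0.488), the last 1.31 and 2.75 (adjusted p = 0.185 and 0.135).

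Cdca8, which encodes the passenger protein borealin, had means of 6.69 ± 4.86, 2.55 ± 1.44 and 2.24 ± 1.71 CPM and was called higher in BCAM high than in differentiated (1.56 ± 0.48, adjusted p = 0.00964, edgeR). Plk1, the Polo-like kinase, showed no such gap. It ran from 0.881 through 4.95 to 13.2 CPM in BCAM high, from 1.26 through 3.80 to 11.5 CPM in BCAM low and from 1.71 through 4.13 to 11.3 CPM in differentiated, and library 6 was the highest of each group. The 3 ranges covered each other almost fully, and no comparison was called (0.26 ± 0.46, 0.27 ± 0.47 and 0.02 ± 0.51, adjusted p = 0.811, 0.684 and 0.986, edgeR). The Aurora kinase genes Aurka and Aurkb, at means of 3.73 ± 2.12 and 4.09 ± 3.68 CPM in BCAM high, fell below the filter. Cdca3, whose product promotes mitotic entry, had means of 5.59 ± 4.41, 3.31 ± 3.69 and 1.97 ± 1.78 CPM and was not called.

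In the checkpoint and APC/C group, 3 of the 6 genes were tested, and Cdc20 was the only one called, against differentiated cells. Cdc20, the activator of the APC/C, ran from 2.94 through 15.5 to 37.5 CPM in BCAM high, from 0 through 3.37 to 15.6 CPM in BCAM low and from 1.28 through 3.89 to 10.2 CPM in differentiated. BCAM high 1 was the highest of all libraries and BCAM high 4 the only BCAM high library under 9 CPM, and 6 BCAM high libraries lay above all of differentiated. It was called higher in BCAM high than in differentiated (1.93 ± 0.59, adjusted p = 0.0108, edgeR). That call was lost in batch 1 alone, in batch 2 alone and with protein-coding transcripts only (for the last, 1.26, adjusted p = 0.301). Against BCAM low it was not called (1.51 ± 0.56, adjusted p = 0.106), but it was without BCAM low 2, the library at 15.6 CPM (2.05, adjusted p = 0.0275), and with the replicate number as a block (1.77, adjusted p = 0.0298). DESeq2's Wald test (1.52, adjusted p = 0.0457) and limma on log2(TPM + 0.1) and log2(TPM + 1) (2.58 and 2.04, adjusted p = 0.032 and 0.00839) called it too. Mad2l1, the checkpoint protein that binds Cdc20, was at 8.15 ± 2.21, 8.72 ± 3.41 and 9.16 ± 3.13 CPM. Its log2 fold changes were -0.07 ± 0.28, -0.15 ± 0.29 and -0.09 ± 0.29, none called.

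Ube2c, the ubiquitin-conjugating enzyme of the APC/C, had means of 8.16 ± 7.62, 3.08 ± 2.06 and 2.62 ± 3.77 CPM and was not called in any comparison. The checkpoint kinase genes Bub1 and Ttk and the checkpoint gene Bub1b were under the filter, with means that were highest in BCAM high and lowest in differentiated: 1.99 ± 1.13, 0.994 ± 1.84 and 0.457 ± 0.430 CPM for Bub1, 1.44 ± 1.53, 0.687 ± 1.03 and 0.551 ± 0.919 CPM for Ttk and 4.39 ± 4.67, 1.99 ± 2.19 and 1.43 ± 1.51 CPM for Bub1b. Ttk was at 0 in 5 differentiated and 4 BCAM low libraries.

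At the kinetochore, Cenpf, a large outer kinetochore protein of G2 and M cells, ran from 4.99 through 7.79 to 16.3 CPM in BCAM high, from 2.14 through 3.48 to 5.73 CPM in BCAM low and from 0 through 1.97 to 8.47 CPM in differentiated. All BCAM high libraries lay above the BCAM low median and 6 above the highest BCAM low library. It was called higher in BCAM high than in differentiated (1.43 ± 0.46, adjusted p = 0.0126, edgeR). The BCAM low comparison was not called (1.30 ± 0.44, adjusted p = 0.0694). It was called without differentiated 2 (adjusted p = 0.0417), with only the 2 groups in the fit (adjusted p = 0.0086), by DESeq2's Wald test (adjusted p = 0.0177) and by limma on log2(TPM + 1) (adjusted p = 0.0246).

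Cenpa, the histone H3 variant of centromeres, and Ndc80, the microtubule-binding core of the kinetochore, were not called in any comparison, with means of 5.85 ± 2.24, 4.63 ± 3.26 and 3.31 ± 2.17 CPM for Cenpa and of 3.42 ± 2.51, 3.61 ± 1.54 and 2.14 ± 1.91 CPM for Ndc80. Cenpe, a kinetochore motor, was almost empty in differentiated: 3 counts over 8 libraries, 5 of them at 0, against 64 counts in BCAM high and 38 in BCAM low. On summed counts and library sizes the ratio to differentiated was 11.6 for BCAM high (95% interval 3.78 to 57.5) and 7.09 for BCAM low (2.25 to 35.9), intervals that cover counting error only. Spc25, of the same complex as Ndc80, was lowest in BCAM low, at 1.37 ± 0.993 CPM, against 3.84 ± 2.14 CPM in BCAM high and 4.65 ± 2.44 CPM in differentiated.

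A fit without the filter took in all 39 genes. In it, the basal subsets differed for 3 genes, with 19 called between BCAM high and differentiated and 6 between BCAM low and differentiated, beside 2.21%, 18.4% and 13.5% of its 30467 genes called in either direction. Of the 13 genes under the filter, Cenpe and Kif2c were called higher in BCAM high than in differentiated, and in BCAM low Cenpe was called higher and Spc25 lower than in differentiated (Spc25 -1.67 ± 0.57, adjusted p = 0.0359, edgeR). Kif2c, a motor that takes microtubules apart at the centromere, had means of 3.52 ± 2.01, 1.87 ± 1.55 and 0.715 ± 0.595 CPM (2.23 ± 0.71 against differentiated, adjusted p = 0.0161).

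Spindle motors and microtubule proteins summed to 90.7 ± 23.5, 63.7 ± 6.23 and 35.3 ± 11.7 CPM, of which Prc1 and Dlgap5 took the most CPM in BCAM high and BCAM low. Prc1 (chr7:80294450-80316259, plus strand) bundles antiparallel microtubules in the spindle midzone. It ran from 15.3 through 24.2 to 33.9 CPM in BCAM high, from 7.94 through 10.8 to 18.7 CPM in BCAM low and from 1.58 through 4.94 to 8.96 CPM in differentiated. BCAM high lay wholly above differentiated, and of BCAM low only replicate 2 reached into the BCAM high range. Prc1 was called in all 3 comparisons by edgeR: 1.03 ± 0.27 for BCAM high against BCAM low (adjusted p = 0.0157), 2.26 ± 0.30 for BCAM high against differentiated (adjusted p = 4.55e-07) and 1.23 ± 0.31 for BCAM low against differentiated (adjusted p = 0.00236). No single library removed any of these calls. The first was not called in batch 1 alone (0.92, adjusted p = 0.078), in batch 2 alone (1.29, adjusted p = 0.0585) or under 4 further alternatives (adjusted p to 0.179), and the last not in batch 2 alone, where it was 0.36 (adjusted p = 0.604) against 1.85 in batch 1 alone (adjusted p = 0.000463). An exon of Prc1 overlaps Rccd1 on the other strand. Strand use in counting is not stated, so reads of the overlap cannot be assigned with certainty; Rccd1 had means of 20.7, 17.1 and 5.15 CPM in the same order of groups, and its part in the Prc1 differences was not tested. Exons of Ccna2, Cdc20, Cdca8, Kif20a, Kif4, Ncapg, Nusap1, Ube2c and Plk1 also overlap a gene on the other strand, and their values carry the same uncertainty.

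Dlgap5 (chr14:47387779-47418407, minus strand), also named HURP, stabilises the microtubules that hold chromosomes. Per length it was the most abundant of the 39 genes in every group, at mean TPM of 27.7, 22.3 and 10.4. Its CPM differed little between the basal subsets: it ran from 15.4 through 25.1 to 37.8 CPM in BCAM high and from 19.2 through 28.1 to 31.7 CPM in BCAM low, but from 4.69 through 16.3 to 32.7 CPM in differentiated. The BCAM low range lay inside that of BCAM high (-0.06 ± 0.25, adjusted p = 0.933, edgeR), and only differentiated fell below 15 CPM, in 4 of its libraries. Dlgap5 was called higher in BCAM low than in differentiated (0.71 ± 0.27, adjusted p = 0.0433) and not called for BCAM high (0.65 ± 0.27, adjusted p = 0.056). The first call was lost without BCAM high 1, without BCAM low 1, 3, 4, 6, 7 or 8, or without differentiated 2, 6, 7 or 8 (adjusted p = 0.0546 to 0.105). The second comparison was called without BCAM high 4 or 5 or differentiated 3 or 4 (adjusted p = 0.0119 to 0.0371).

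Dlgap5 counts fell mainly on 2 annotated coding transcripts. Of 720 estimated Dlgap5 counts in BCAM high, 308 were assigned to a transcript of 727 bases, 341 to one of 4067 bases and 13 to one of 2964 bases. In the same order, BCAM low had 286, 392 and 2 of 733 counts and differentiated 118, 120 and 1 of 250 counts. Assignment to transcripts is kallisto's estimate from short reads and was not checked otherwise.

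The other tested members of this role were higher in BCAM high than in differentiated. Kif20a and Kif23, kinesins of the midzone and midbody, were called at 2.04 ± 0.52 and 1.13 ± 0.35, Tpx2, which activates Aurora A on the spindle, at 2.16 ± 0.65, and Hmmr, a spindle pole protein, at 1.42 ± 0.41 (adjusted p = 0.00231, 0.0104, 0.00808 and 0.00645, edgeR). Of these calls, those of Kif20a, Kif23 and Tpx2 were lost in batch 2 alone and with transcript length offsets, and that of Hmmr in batch 1 alone. Mean Kif20a was 6.91 ± 4.36, 4.25 ± 2.65 and 1.65 ± 0.957 CPM and mean Kif23 was 10.1 ± 4.29, 7.33 ± 2.90 and 4.55 ± 2.42 CPM. Mean Tpx2 was 6.81 ± 3.84, 2.15 ± 2.25 and 1.50 ± 1.59 CPM, and its difference between the basal subsets was not called (1.66 ± 0.60, adjusted p = 0.0914). Mean Hmmr went from 5.48 ± 1.73 CPM in BCAM low to 2.42 ± 1.74 CPM in differentiated, and was called there too (1.20 ± 0.41, adjusted p = 0.0252), a call lost without differentiated 4 or 7 (adjusted p = 0.0505 and 0.051). Kif11, Kif4 and Nusap1, under the filter, had BCAM high means of 2.48 ± 1.33, 1.11 ± 0.901 and 3.66 ± 2.95 CPM.

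Of the 3 cytokinesis genes, 2 were called against differentiated cells for BCAM high, 1 for BCAM low and 0 between the basal subsets, where 0 had an unadjusted p under 0.05. Anln, which encodes the contractile ring scaffold anillin, ran from 2.35 through 5.35 to 12.9 CPM in BCAM high, from 1.37 through 4.26 to 11.9 CPM in BCAM low and from 0 through 1.05 to 3.33 CPM in differentiated. The basal subsets overlapped nearly fully, 3 differentiated libraries were at 0, and every library of both basal subsets lay above the differentiated median. Anln was called higher than in differentiated for BCAM high (2.39 ± 0.60, adjusted p = 0.00193, edgeR) and for BCAM low (2.00 ± 0.60, adjusted p = 0.0115). Ect2, the exchange factor that activates RhoA at the cleavage furrow, was called for BCAM high (2.13 ± 0.54, adjusted p = 0.00214) at means of 6.78 ± 4.82, 4.08 ± 2.51 and 1.63 ± 1.51 CPM. Its partner Racgap1 was at 5.23 ± 2.17, 3.39 ± 1.89 and 4.23 ± 2.18 CPM and was not called in any comparison. In batch 2 alone neither Anln nor Ect2 was called against differentiated, and Ect2 was also not called with transcript length offsets.

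Mki67 (chr7:135689784-135716361, minus strand), which encodes the proliferation marker Ki-67, a coat protein of mitotic chromosomes, ran from 1.47 through 8.44 to 19.3 CPM in BCAM high, from 1.01 through 5.23 to 12.9 CPM in BCAM low and from 0.619 through 2.17 to 7.34 CPM in differentiated. BCAM high 4, at 1.47 CPM, was the only BCAM high library inside the differentiated range, while BCAM high and BCAM low overlapped broadly. Mki67 was called higher in BCAM high than in differentiated (1.86 ± 0.50, adjusted p = 0.00325, edgeR) and not called between the basal subsets (0.92 ± 0.45, adjusted p = 0.24).

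Top2a (chr11:98992943-99024189, minus strand), the topoisomerase that untangles sister chromatids, ran from 3.54 through 8.24 to 20.7 CPM in BCAM high, from 1.14 through 4.19 to 8.82 CPM in BCAM low and from 0.546 through 2.43 to 11.3 CPM in differentiated. BCAM high 1 stood alone at the top, and the other BCAM high libraries overlapped both other groups. The difference from differentiated was called (1.30 ± 0.49, adjusted p = 0.033, edgeR). Without BCAM high 1 it was 0.93 and not called (adjusted p = 0.117), and the call was also lost without differentiated 1, 3, 4, 5 or 7 (adjusted p from 0.0544). In batch 2 alone the difference was 0.23 and with transcript length offsets 0.54 (adjusted p = 0.851 and 0.48, edgeR). The call was also lost with no batch term and with only the 2 groups in the fit (adjusted p = 0.0549 and 0.053, edgeR). Ncapd2, a condensin subunit, ran from 4.41 through 9.10 to 12.2 CPM in BCAM high, from 2.21 through 4.54 to 11 CPM in BCAM low and from 1.24 through 5.99 to 8.11 CPM in differentiated. The 3 ranges overlapped and no comparison was called (0.55 ± 0.36, 0.79 ± 0.38 and 0.25 ± 0.39, adjusted p = 0.424, 0.0957 and 0.663). Ncapg, another condensin subunit, was under the filter at 1.58 ± 1.18 CPM in BCAM high.

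Reads on transcripts annotated as protein coding made up 76.5% of the counts of the 39 genes in BCAM high, against 70.5% in BCAM low and 67.1% in the differentiated cells. The share differed widely for Ect2, at 67.1%, 4.78% and 10.2%, and was 81.3%, 36.5% and 49.7% for Top2a. On the coding transcript of Top2a, of 5221 bases, lay 205 counts from BCAM high, 42 from BCAM low and 29 from differentiated. With protein-coding transcripts alone, 18 of the 39 genes passed the filter, and 0, 11 and 4 were called by edgeR in the 3 comparisons, in the order used above, all higher, beside 5.14%, 36.3% and 28.2% of 11007 genes in either direction; DESeq2 was not run on these counts, and the first had 7 at an unadjusted p under 0.05.

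Few of the mitosis genes were called between batches, where batch 2 held 3 libraries per group. From batch 1 to batch 2, summed CPM went from 301 ± 136 (SD, n = 5) to 228 ± 35.8 (SD, n = 3) in BCAM high, from 143 ± 25.4 to 192 ± 53.6 in BCAM low and from 109 ± 27.4 to 124 ± 53.6 in differentiated, so that the mean of BCAM high stood above that of BCAM low in both batches, by a smaller margin in batch 2. The highest BCAM low libraries of batch 2, at 234 and 210 CPM, overlapped BCAM high of batch 2 (191 to 262 CPM). With batches fitted separately by edgeR, 4 mitosis genes were called between the basal subsets in batch 1, beside 5.69% of all genes in that fit in either direction, and 0 in batch 2, beside 4.38%, where there are 3 libraries per group and 1 gene had an unadjusted p under 0.05; DESeq2 was not run on a single batch. The batch 1 calls were Ccnb1 (2.18, adjusted p = 0.00796), Ccnb2 (2.07, adjusted p = 0.034), Cdk1 (2.34, adjusted p = 0.0298) and Cdca3.

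The test of whether a difference itself changed between batches (edgeR, interaction) called none of the 26 between BCAM high and BCAM low, with 4 at an unadjusted p under 0.05, beside 1.06% of all genes called; DESeq2 was not run for interactions. Between the basal subsets the log2 fold change was lower in batch 2 than in batch 1 for 21 of the 26 and higher for 5. The median of these changes was -0.88. The same split and median over all genes tested were not taken, so these values describe the 26 genes and are no evidence of a shift in them as a set. The interaction test called Dlgap5 in BCAM high against differentiated, beside 8.69% of all genes, and Dlgap5 and Cdca3 in BCAM low against differentiated, beside 11.4%. Dlgap5 in differentiated was at 22.4 ± 7.46 CPM in batch 1 (SD, n = 5) and 7.80 ± 3.32 CPM in batch 2 (SD, n = 3), called lower in batch 2 (-1.55 ± 0.33, adjusted p = 0.00075, edgeR). The differentiated libraries of batch 2 also stood apart in their markers: thyroid genes summed to 49153 to 116402 CPM against 13734 to 25731 CPM in batch 1, 8 secretory markers to 13491 to 90211 CPM against 290484 to 424435 CPM, and basal markers to 369 to 1148 CPM against 2252 to 2799 CPM. The part of this in the batch differences was not tested. In BCAM high it was at 22.4 ± 5.70 and 31.4 ± 6.89 CPM and in BCAM low at 26 ± 4.54 and 28.8 ± 2.67 CPM. In batch 1 alone the Dlgap5 difference from differentiated was -0.0052 for BCAM high and 0.20 for BCAM low (adjusted p = 0.99 and 0.549), and in batch 2 alone it was 2.03 and 1.91 (adjusted p = 0.000357 and 0.00113). Cdk1 in BCAM low was called higher in batch 2 (2.15 ± 0.71, adjusted p = 0.0437), at 8.50 ± 5.62 CPM against 1.88 ± 1.78 CPM in batch 1. Batch 2 against batch 1 was called for 0, 1 and 1 of the 26 genes in BCAM high, BCAM low and differentiated, beside 8.04%, 11.1% and 20.1% of all genes. At an unadjusted p under 0.05 there were 3, 5 and 3 (edgeR). In batch 2, 19 of the 26 were lower and 7 higher in BCAM high. In BCAM low 6 were lower and 20 higher, and in differentiated 7 were lower and 19 higher. These splits too have no share of all genes tested beside them and are description only.

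Genes of the same process outside the 39, and of the steps before mitosis, were read from further lists. Of 74 other mitosis genes 42 passed the filter. Between BCAM high and BCAM low 2 were called higher and 0 lower, Pbk, a mitotic kinase (4.58 ± 5.34 and 0.542 ± 0.676 CPM, 2.97 ± 0.88, adjusted p = 0.0387, edgeR; adjusted p = 0.0622 with the replicate number as a block), and Ckap2, a microtubule-associated protein (6.40 ± 3.23 and 1.54 ± 1.50 CPM, 2.23 ± 0.55, adjusted p = 0.0111). Pbk lost its call under 8 of 11 alternatives and Ckap2 under 1 of 13, batch 2 alone. These 2 genes were 4.76% of the 42, beside 2.43% of all genes tested. The median of the 42 was 0.17, lower than the 0.86 of the 26. Compared with differentiated cells, BCAM high had 7 called higher (16.7%) and 3 lower, and BCAM low had 4 higher (9.52%) and 3 lower, with medians of 0.34 and 0.21. Both shares called higher lay below those of all genes tested, 19.4% and 16.3%. Gtse1, a G2 and S phase protein, was the largest, at 15 ± 2.92, 9.95 ± 4.12 and 0.601 ± 0.386 CPM, with no overlap between differentiated and either basal subset (4.58 ± 0.37 and 3.98 ± 0.37, adjusted p = 4.15e-11 and 1.85e-09). Fam83d, a spindle protein, was at 7.20 ± 4.21, 2.55 ± 1.94 and 0.512 ± 0.841 CPM (3.88 ± 0.67 and 2.33 ± 0.70, adjusted p = 2.37e-05 and 0.0106). Cit, citron kinase of the midbody, was lower in BCAM high (-2.29 ± 0.55, adjusted p = 0.0013) and in BCAM low (-1.50 ± 0.56, adjusted p = 0.0412) than the 12.5 ± 8.42 CPM of differentiated; in batch 2 alone the Cit difference of BCAM low was 0.63 (adjusted p = 0.657).

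DNA replication genes were also called between the basal subsets. Of 31, 24 passed the filter, and 5 were called higher in BCAM high than in BCAM low (20.8%, beside 2.43% of all genes tested) and 0 lower, with a median of 0.47: Mcm3, Mcm4, Mcm5 and Mcm7 of the replicative helicase and Rrm1 of ribonucleotide reductase, of which Mcm4 and Rrm1 are named after their values were seen. Mcm7 was at 45.8 ± 16.2 and 24.5 ± 3.99 CPM (0.87 ± 0.21, adjusted p = 0.00808), Mcm3 at 26.6 ± 11.1 and 13.4 ± 4.64 CPM (1.02 ± 0.28, adjusted p = 0.0238) and Mcm5 at 22.3 ± 9.51 and 11.8 ± 2.69 CPM (0.91 ± 0.28, adjusted p = 0.0456, all edgeR; adjusted p = 0.0595 for Mcm5 with the replicate number as a block). These calls depended on the model: Mcm3 lost its call under 6 of 14 alternatives, Mcm5 under 8 and Mcm7 under 5. All of Mcm3, Mcm5 and Mcm7 lost it in batch 2 alone, with transcript length offsets and with protein-coding transcripts only. Against differentiated, 11 of the 24 were called higher for BCAM high (45.8%, beside 19.4% of all genes) and 3 for BCAM low (12.5%, beside 16.3%), 0 lower, with medians of 0.67 and 0.21. Rrm2, the S phase subunit of ribonucleotide reductase, was at 12.2 ± 5.39, 5.17 ± 2.95 and 1.81 ± 1.74 CPM (2.76 ± 0.53 and 1.49 ± 0.54, adjusted p = 0.000103 and 0.0333). Dut, which clears dUTP, was at 60.8 ± 8.61, 55.2 ± 10.8 and 19.0 ± 6.86 CPM, with both basal subsets wholly above differentiated (1.67 ± 0.18 and 1.52 ± 0.18, adjusted p = 7.84e-09 and 8.43e-08). In BCAM low the third was Slbp, the histone mRNA-binding protein (0.55 ± 0.13, adjusted p = 0.00121).

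Single libraries decided several of these calls. Pbk lost its call without BCAM high 1, 2, 5, 6 or 8 or BCAM low 1, 3, 4, 5, 7 or 8 (adjusted p = 0.0507 to 0.128). Mcm3 lost it without BCAM high 1, 5 or 6 or BCAM low 7 or 8 (0.0528 to 0.0675), and Mcm5 without any of 14 libraries, namely BCAM high 1, 2, 4, 5, 6 or 8, BCAM low 2 to 8 or differentiated 4 (0.0517 to 0.126). Between BCAM low and differentiated, Rrm2 lost its call without BCAM low 1, 6 or 8 or differentiated 1, 3, 5 or 7 (0.0512 to 0.0801) and Cit without BCAM low 1 to 5 or 8 or differentiated 1 to 5 or 8 (0.051 to 0.096).

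Upstream regulators were called in both directions. Of the G1 cyclins and their kinases, 7 were tested and none was called between the basal subsets (3 higher at an unadjusted p under 0.05 by edgeR); against differentiated, 3 were called higher and 2 lower for BCAM high and 1 higher and 2 lower for BCAM low, where all genes were called higher at 19.4% and 16.3% and in either direction at 41.3% and 33.5%. Cyclin D2 (Ccnd2) was higher in both basal subsets (415 ± 61.9, 385 ± 40.1 and 259 ± 65.7 CPM, 0.68 ± 0.11 and 0.59 ± 0.11, adjusted p = 8.42e-06 and 0.000112) and cyclin D3 (Ccnd3) lower (102 ± 24.4, 99.4 ± 12.6 and 169 ± 31.0 CPM, -0.75 ± 0.13 and -0.78 ± 0.13, adjusted p = 3.07e-05 and 2.99e-05). On TPM the Ccnd3 difference of BCAM high was 0.03 with 0.1 or 1 added (adjusted p = 0.899 and 0.901, limma). Cyclin D1 (Ccnd1) was called for BCAM high (0.59 ± 0.20, adjusted p = 0.021, lost without BCAM high 8 or differentiated 6 or 8, adjusted p = 0.0502 to 0.0533). Cdk6 was called lower for BCAM low (-0.32 ± 0.12, adjusted p = 0.0332, lost without any of 10 libraries, BCAM low 1 to 5, 7 or 8 or differentiated 1, 4 or 7, adjusted p = 0.05 to 0.0708), and was 0.19 and 0.16 on TPM.

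Among 5 tested CDK inhibitors, Cdkn2b, which encodes p15, was the only gene called between the basal subsets, lower in BCAM high at 1.79 ± 1.28 against 7.86 ± 3.58 CPM (-2.05 ± 0.43, adjusted p = 0.00342, edgeR), and it was lower than in differentiated too (7.39 ± 4.50 CPM, -1.93 ± 0.44, adjusted p = 0.000768). Cdkn1a, which encodes p21, was higher in both basal subsets than in differentiated (174 ± 26.2, 168 ± 16.5 and 102 ± 48.2 CPM, 0.84 ± 0.19 and 0.77 ± 0.19, adjusted p = 0.000708 and 0.00218); in batch 2 alone the BCAM high difference was -0.0025 (adjusted p = 0.994). Cdkn1b, for p27, was called for both (0.46 ± 0.14 and 0.36 ± 0.14, adjusted p = 0.00943 and 0.0467), the second lost without any of 16 libraries (BCAM high 1, 2, 4, 5, 7 or 8, BCAM low 1, 2, 5, 6 or 8, differentiated 1, 2, 4, 6 or 8, adjusted p = 0.0513 to 0.114). Cdkn2c, for p18, was lower in BCAM low than in differentiated (-1.36 ± 0.31, adjusted p = 0.000925).

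Of 12 tested E2F, RB and DREAM genes, none was called between the basal subsets (1 higher at an unadjusted p under 0.05 by edgeR), and 2 were called higher (16.7%) and 1 lower than in differentiated for each basal subset, no larger a share than the 19.4% of all genes for BCAM high and close to the 16.3% for BCAM low. The higher pair was Rb1, the retinoblastoma gene (24.2 ± 2.87, 21.6 ± 5.06 and 10.2 ± 5.63 CPM, 1.28 ± 0.24 and 1.11 ± 0.24, adjusted p = 8.37e-05 and 0.000756), and Tfdp1, a dimer partner of E2F proteins (0.92 ± 0.24 and 0.62 ± 0.24, adjusted p = 0.00225 and 0.0458). With protein-coding transcripts only, all 4 calls were lost: Rb1 was at 0.23 and 0.31 (adjusted p = 0.706 and 0.612) and Tfdp1 at 0.55 and 0.51 (adjusted p = 0.165 and 0.229). The BCAM low call of Tfdp1 was lost without any of 15 libraries, BCAM high 1, 5, 7 or 8, BCAM low 1, 2, 5, 6, 7 or 8 or differentiated 1, 4, 6, 7 or 8 (adjusted p = 0.0511 to 0.0928). E2f5 was lower (3.88 ± 2.02, 4.94 ± 2.25 and 14.7 ± 7.48 CPM, -1.87 ± 0.38 and -1.54 ± 0.37, adjusted p = 0.000185 and 0.00193).

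**Figure D5:**
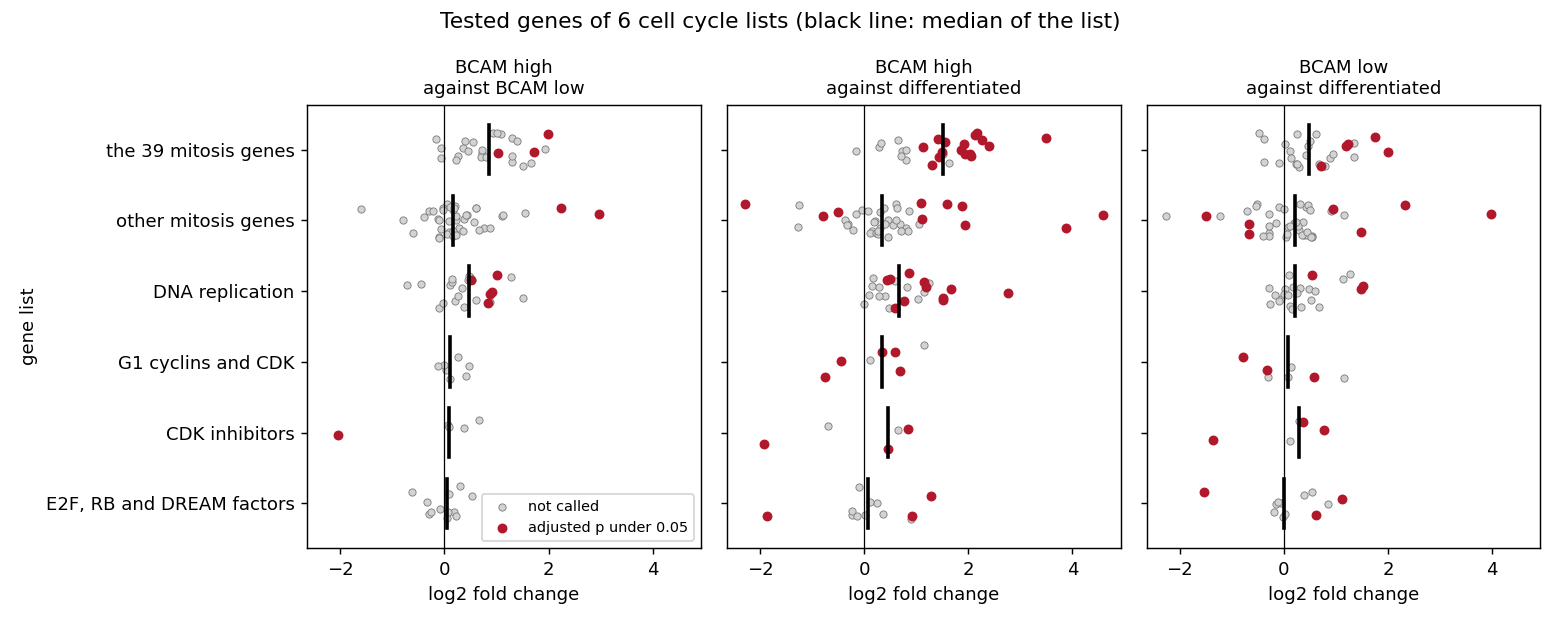
Log2 fold change (horizontal axis) of each tested gene of 6 cell cycle lists (rows; points are spread vertically for legibility) in each comparison, with the list's median as a black line and red for an adjusted p under 0.05. In BCAM high against BCAM low the mitosis genes have a median of 0.86 and DNA replication genes of 0.47, and the 3 regulator lists lie near 0.

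Markers of other cell types that divide or that the sort could hold were read beside these differences. The 6 fibroblast markers summed to 173 to 672 CPM in BCAM high, 66.2 to 382 CPM in BCAM low and 0.411 to 308 CPM in differentiated, with none at 0 in any group. The 7 lymphocyte markers summed to 0.889 to 10.1, 1.51 to 19.1 and 2.88 to 14.8 CPM, with Nkg7 at 0 throughout BCAM low and differentiated, and the 7 myeloid markers to 19.1 to 44.3, 18.0 to 90.2 and 9.04 to 48.4 CPM. Endothelial markers (6) summed to 17.9 to 54.6, 15.6 to 64.5 and 5.18 to 43.1 CPM. BCAM high 1, the library highest for the mitosis genes, held 535 CPM of fibroblast and 4.13 CPM of lymphocyte markers, within the range of its group. Its 44.3 CPM of myeloid markers was the highest of the BCAM high libraries. Multiciliated precursor markers (7), some of which share the mitotic machinery, summed to 31.4 to 46.7, 20.1 to 75.0 and 16.9 to 117 CPM. Over all libraries of a group, the 8 secretory markers summed to 25805 to 34811, 34493 to 75305 and 13491 to 424435 CPM, 8 ciliated markers to 351 to 667, 487 to 1108 and 674 to 1476 CPM, and 6 suprabasal and hillock markers to 712 to 1372, 1521 to 3267 and 810 to 3299 CPM. The part of any of these cells in the differences of the mitosis genes was not tested.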

How the data were processed

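RNA-seq of 24 libraries was used, 8 per group. The deposited tables give, per transcript, an estimated count, a TPM value and an effective length. Per the submitters' processing notes, kallisto (46.1), Picard and the build GRCm39 were involved; the sources used here do not say whether counting used strand. Both the estimated counts and the TPM values deposited by the authors were summed per gene with GENCODE M21 (GRCm38), whose gene coordinates are printed; 1123 of 117497 transcripts did not match (0.317% to 0.594% of counts) and were left out, and estimated counts were rounded.

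The main test was edgeR 4.0.16 (R 4.3.3), quasi-likelihood, robust, with TMM factors, the default filter by group (12211 genes), a mean per group and a batch term, adjusted by Benjamini-Hochberg at 0.05. Interactions came from a model with separate means for every combination of group and batch. The script was tested on simulated data. Alternatives were DESeq2 1.42.0, limma 3.58.1 on log2(TPM + 0.1) and log2(TPM + 1), length offsets, other filters and samples; 2 were chosen after seeing the data, protein-coding transcripts only and leaving out the 3 BCAM low libraries of batch 2. Figures used matplotlib 3.10.9.

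Deviations of same-numbered libraries from their group means correlated at 0.121 to 0.29 between BCAM high and BCAM low, over 0.1 in all 8 pairs. Batch is part of these values: from means of group and batch the range was 0.0315 to 0.173, with 3 of 8 pairs over 0.1. A pairing of these libraries could thus be read only from the data, not the labels. The replicate number entered only the alternative fit as a block, and p-values of the main fit ignore any pairing. With differentiated, 5 of 8 pairs were over 0.1 from group means in either comparison (0.0382 to 0.242). From means of group and batch, 3 of 8 were over 0.1 with BCAM high (0.0354 to 0.161) and 1 of 8 with BCAM low (0.0363 to 0.176). The BCAM high values were thus alike with BCAM low and with differentiated once batch was taken out, and whether any groups are paired is not settled. The 39 genes, the other lists and the tests were chosen with earlier results of these data known. Values are given for Mki67, Top2a, Cdk1 and Ccnb1, for every member called between the basal subsets and for the member of highest mean CPM in each role; from other lists, up to 3 called genes of largest fold per comparison. Genes with 3 counts or fewer in a group get no fitted fold. One gene of the E2F list, Lin54, was not analysed here. One marker list is not reported here.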

Additional observations from a re-analysis of the deposited data

Results flagged for a closer look

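Of 42 sets of 8 libraries of a named gene in a group, 2 held a library whose gap to the next exceeded the 95% limit of Dixon's test; chance alone gives about 1 in 20. Top2a was at 20.66 CPM in BCAM high 1 and at 9.30 CPM in the next library (gap 0.663 of the range). Ccnb2 was at 15.88 CPM in BCAM low 6 and at 6.43 CPM in the next (gap 0.647).

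In 3 cases a difference between groups itself differed between batches (edgeR interaction, batch 2 minus batch 1). The Dlgap5 difference of BCAM high from differentiated was larger by 2.04 ± 0.42 on the log2 scale in batch 2 (adjusted p = 0.00137) and that of BCAM low by 1.70 ± 0.42 (adjusted p = 0.00637). The Cdca3 difference of BCAM low from differentiated was larger by 4.75 ± 1.30 (adjusted p = 0.0139); Cdca3 was at 1.40 ± 0.65 and 6.5 ± 4.74 CPM in BCAM low and at 2.87 ± 1.65 and 0.463 ± 0.421 CPM in differentiated, in batches 1 and 2.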

How the results depend on the processing

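Counts of mitosis genes called depended on the model. Between BCAM high and BCAM low (3 called), the count was 8 by DESeq2's Wald test and by limma on log2(TPM + 1), 7 with only the 2 groups compared, 1 without the 3 BCAM low libraries of batch 2, and 0 in batch 2 alone, with transcript length offsets or with protein-coding transcripts only. Between BCAM high and differentiated (16) it was 8 with only the 2 groups and 11 with transcript length offsets or protein-coding transcripts only. By limma it was 20 and 23 with 0.1 and 1 added to TPM. In batch 2 alone it was 5, namely Birc5, Dlgap5, Hmmr, Mki67 and Prc1. Between BCAM low and differentiated (5) it was 2 with only the 2 groups and in batch 1 alone, 1 in batch 2 alone, and 10 and 8 by limma with 0.1 and 1 added to TPM. With only 2 groups, 25, 16 and 6 of the 39 genes passed the filter; elsewhere the cause was not tested. Leaving out single libraries gave 1 to 5, 13 to 17 and 3 to 7 calls, and the lowest counts of the first pair came without BCAM high 1. On TPM the median of all genes moved, to 0.26 and 0.23, 0.75 and 0.64, and 0.48 and 0.40 in the 3 comparisons for 0.1 and 1 added. With the replicate number as a block the counts were 3, 16 and 4. Between the basal subsets the 3 were Ccnb1, Prc1 and Cdc20, with Cdc20 gained and Birc5 lost; Pbk and Mcm5 between the basal subsets and Dlgap5 and Cdkn1b between BCAM low and differentiated were no longer called; 6, 6 and 5 of 8 libraries correlated best with their own number, a hint from the data and not the design.

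Genes whose difference depended on batch numbered 2, 2 and 2 without the filter, and with length offsets 0 in both comparisons with differentiated; with protein-coding transcripts only, the BCAM low comparison had 1. Single libraries gave 0 to 1, 1 to 2 and 1 to 3. Between batches, BCAM low had 0 when genes of 1 CPM or more on average were kept, with length offsets or protein-coding transcripts only, and differentiated 2 without the filter or at 1 CPM or more and 0 with length offsets; single libraries gave 0 to 2 and 1 to 2.

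Some differences turned in sign, among them the called ones of Cit and Cdk6 in BCAM low and of Ccnd3 and Cdkn1a in BCAM high, all against differentiated. Between the basal subsets, length offsets gave Mki67 -0.045, Top2a -0.20 and Dlgap5 0.032, and batch 2 alone gave Cdk1 -0.82, Plk1 -0.41, Anln -0.25 and Dlgap5 0.12. Dlgap5 was also 0.26 and 0.25 on TPM (0.1 and 1 added), 0.14 without the 3 BCAM low libraries and -0.18 to 0.033 without single libraries. Between BCAM high and differentiated, batch 2 alone gave Cdk1 -0.11 and Cdkn1a -0.0025, batch 1 alone Dlgap5 -0.0052, and TPM Ccnd3 0.028 and 0.027. Between BCAM low and differentiated, batch 2 alone gave Cdk1 0.71, Ncapd2 -0.30 and Cit 0.63, protein-coding transcripts Top2a -0.16, TPM Cdk6 0.19 and 0.16, and omission of the 3 libraries Ccnb2 -0.11 and Plk1 -0.48. Plk1 was also -0.000548 and -0.00480 with DESeq2 (size factors, Wald) and -0.54 in batch 1. Without single libraries, Plk1 ran from -0.17 to 0.27, Cdc20 from -0.088 to 0.77 and Cenpf from -0.056 to 0.56. The depth of 133 to 1790 counts over the 39 genes per library limits all of these values.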
